A study of Mus musculus with 12 samples.

Results

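The genes described here are the apolipoproteins Apoa1, Apoa2, Apoa4, Apoa5, Apob, Apoc1, Apoc2, Apoc3 and Apoe and the lipid transfer protein gene Mttp, taken by symbol from a mouse liver expression table. They are 10 of the 25947 genes of the table, and all 10 passed the filter on low values. RNA came from livers of wild-type (WT) mice in 4 groups of 3 libraries. HFD-IRI mice ate a high-fat diet (HFD) for 4 months, which the submitters used to model a fatty liver, before ischemia-reperfusion injury (IRI). HFD-Sham mice ate the same diet and had the sham operation. ND-IRI and ND-Sham mice ate a normal diet (ND) for 4 months and had the injury or the sham operation. In IRI the left and middle branches of the hepatic pedicle were tied for 1 h, and liver was taken after 6 h of reperfusion, while in the sham operation no branch was tied. The labels give no strain, sex or age, do not say which lobe was sampled, and do not say whether replicates came from separate animals, so p-values cover only the spread among these libraries, and that spread may be technical.

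Apolipoproteins are the protein coat of lipoproteins, the particles that carry triglyceride and cholesterol through blood. Hepatocytes build very-low-density lipoprotein (VLDL) on apolipoprotein B, onto which the microsomal triglyceride transfer protein Mttp loads lipid in the endoplasmic reticulum, and they also release apolipoproteins A-I and A-II for high-density lipoprotein (HDL). The smaller apolipoproteins C, A-V and E move between particles and set how fast lipoprotein lipase empties them and how fast receptors clear them. In bulk liver RNA, fewer cells of a type and less RNA per cell cannot be told apart.

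Expression was given as TPM, a transcript abundance per transcript length that sums to the same total in every library, so the depth of each library is unknown and no counting interval can be given. Differences were tested with limma on log2(TPM + 1) over 13364 genes, two-sided. An adjusted p under 0.05 made a call, and every log2 fold change refers to TPM + 1. For 1 gene in 3 libraries a group, exact permutation cannot reach a p below 0.1. Between 18935 and 20425 genes per library were above 0 TPM. Markers of hepatocytes were high in every library: the 10 markers summed to 107982 to 120288 TPM in HFD-IRI, 106743 to 120943 TPM in HFD-Sham, 119188 to 144499 TPM in ND-IRI and 115982 to 131267 TPM in ND-Sham livers. Alb was most of each sum, and single markers moved. For ND-IRI over ND-Sham 1 was called higher and 3 lower (30.2% and 16.6% of all tested genes). For HFD-IRI over HFD-Sham 1 was called higher and 0 lower (24.0% and 21.9%). For HFD-Sham over ND-Sham 0 were called higher and 3 lower (4.63% and 1.20%), with a median log2 fold change of -0.41. For HFD-IRI over ND-IRI 0 of 10 were called (3.86%). Adipoq, made by adipocytes, reached 11.6 TPM in the first ND-Sham library and at most 0.23 TPM elsewhere, and results for the 10 genes that change without it and the first ND-IRI library are given with that value. Plin1 was also highest in that library, at 2.31 TPM, whereas Cfd had 67.5 TPM there, 79.3 TPM in HFD-Sham 1 and 59.3 TPM in HFD-IRI 1. The 6 adipocyte markers, Car3 giving most of the sum, summed to 1846 to 2616 TPM in HFD-IRI, 2997 to 4094 TPM in HFD-Sham, 1565 to 1823 TPM in ND-IRI and 573 to 1394 TPM in ND-Sham livers.

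The 10 genes together took 6.55% ± 0.529 of the TPM of HFD-IRI livers and 7.47% ± 0.309 of HFD-Sham livers, against 4.90% ± 0.282 of ND-IRI livers and 6.42% ± 0.339 of ND-Sham livers (SD, n = 3 each). ND-IRI libraries, at 4.57% to 5.07%, lay below all others, the next being 6.06% in an HFD-IRI library. Apoe, Apoa2 and Apoa1 made up most of this share. Apoe was 38.5%, 40.2%, 34.1% and 34.5% of the summed TPM of the 10 genes in HFD-IRI, HFD-Sham, ND-IRI and ND-Sham livers. Apoa2 was 27.4%, 25.5%, 25.0% and 24.1%, and Apoa1 was 16.7%, 17.6%, 23.7% and 26.8% in the same order of groups. Apoe ranked 4, 3, 4 and 4 by mean TPM among all genes in these groups, whereas Mttp ranked 839, 782, 1064 and 805. The order of the mean levels was Apoe, Apoa2, Apoa1, Apoc1, Apoa4, Apoc3, Apoa5, Apob, Mttp and Apoc2 in both HFD groups. In ND-Sham livers it was Apoe, Apoa1, Apoa2, Apoc1, Apoc3, Apoa5, Apob, Apoa4, Mttp and Apoc2, and in ND-IRI livers it differed from that only in having Apoa2 before Apoa1. The ranges of Apoa2 and Apoa1 overlapped in both ND groups, and those of Apoa4 and Apoc3 in both HFD groups. Those of Apoa4 and Apoc1 and of Apoa5 and Apob overlapped in HFD-Sham livers. Those of Apoa4 and Apoa5 overlapped in HFD-IRI livers, and those of Apoa4 and Mttp in ND-Sham livers. The ranges of Apoc3 and Apoa5 did not overlap in any group.

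**Figure D1:**
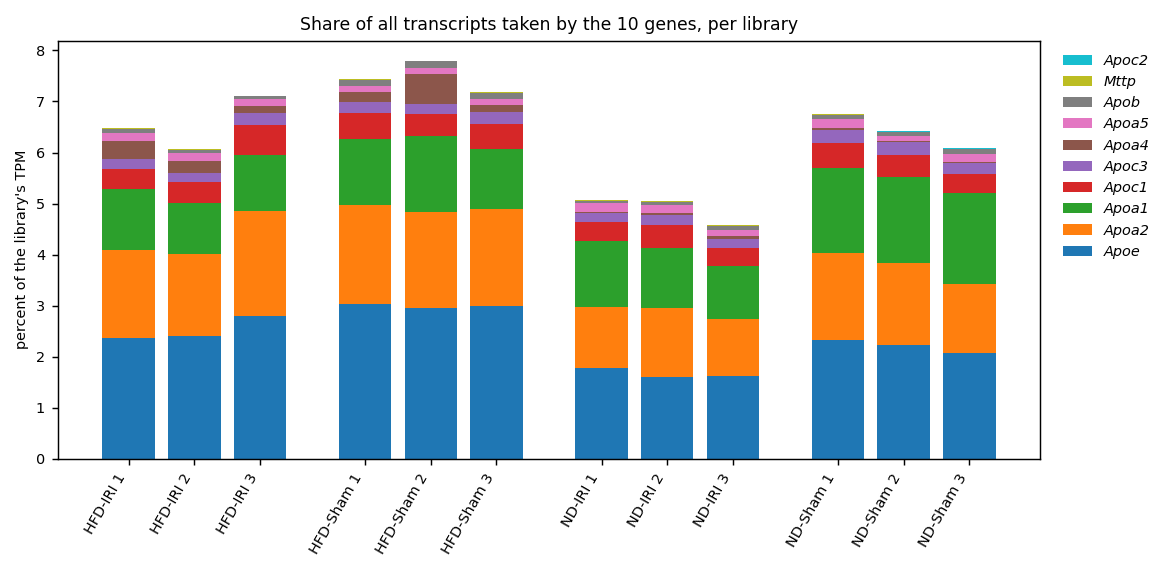
Stacked bars give the percent of each library's TPM taken by each of the 10 genes, for the 3 libraries of each group. The ND-IRI bars, at 4.57% to 5.07%, are the lowest, and Apoe, Apoa2 and Apoa1 form most of every bar.

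Of the 10 genes, Apoa4 was higher on the high-fat diet in both operations, and Apob was lower after IRI on both diets. Between IRI and sham livers on the normal diet, 3 of 10 were called, all lower (Apoa1, Apob and Apoe), where 16.6% of all tested genes were called lower, 30.2% higher and 46.8% in either direction. On the high-fat diet, 2 of 10 were called, both lower (Apob and Apoc2), where 21.9% of all genes were called lower, 24.0% higher and 45.9% in either direction. Between the diets, 1 of 10 was called in sham livers (Apoa4, higher), where 4.63% of all genes were called higher, 1.20% lower and 5.84% in either direction. In IRI livers 2 of 10 were called (Apoa4 and Apoe, higher), where 2.38% of all genes were called higher, 1.48% lower and 3.86% in either direction. The difference between the IRI effects on the 2 diets was called by limma for 0 of 10 genes, with 0 of 10 also under an unadjusted p of 0.05, where 0.0973% of all genes were called (0.0449% higher and 0.0524% lower). The median log2 fold change of the 10 genes was -0.37 on the normal diet and -0.18 on the high-fat diet for IRI over sham, beside 0.16 and 0.01 over all tested genes. For HFD over ND it was 0.18 in sham and 0.16 in IRI livers, beside 0.17 and 0.04 over all tested genes. Median-ratio scaling moved the median of all genes by -0.16 for ND-IRI over ND-Sham and by -0.16 for HFD-Sham over ND-Sham, and quantile normalization by -0.20 and -0.17. All 8 neutrophil markers rose after IRI on each diet, their summed TPM being 204 to 552 in HFD-IRI against 6.80 to 15.9 in HFD-Sham livers, and 241 to 649.7 in ND-IRI against 19.2 to 21.6 in ND-Sham livers. Of 6 endothelial markers 3 rose and 1 fell on each diet. The part of these cells in the IRI differences was not tested.

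**Figure D2:**
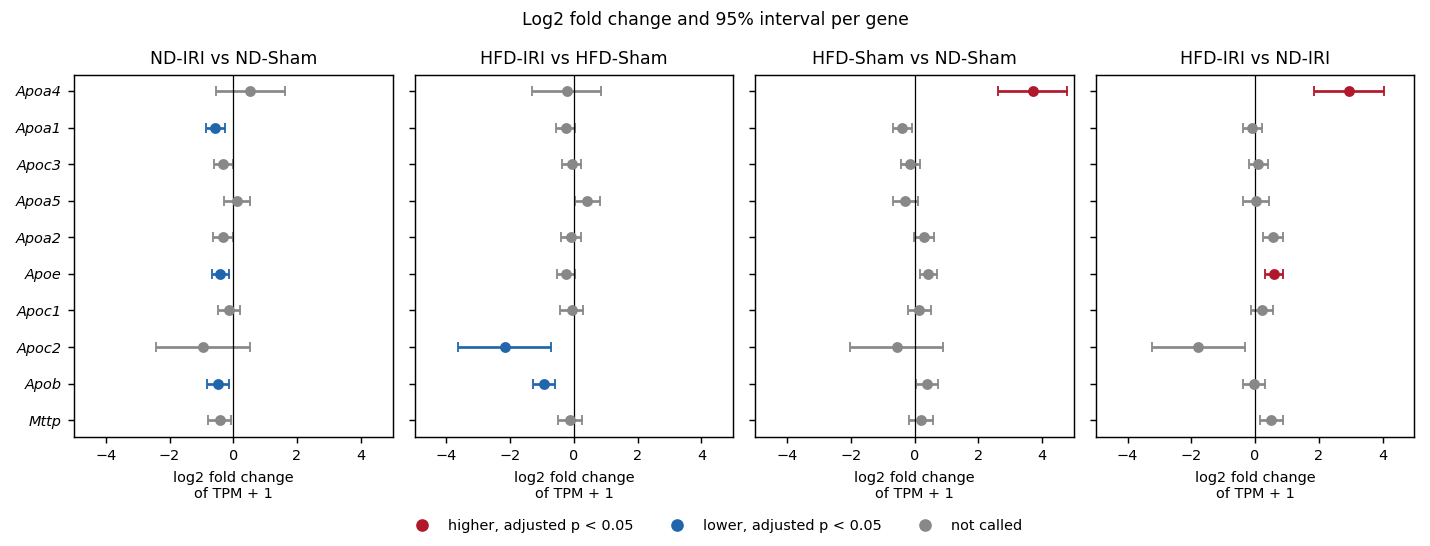
Points are log2 fold changes of TPM + 1 from limma and bars their 95% intervals, for the 10 genes in 4 comparisons, each group named first being over the group named second. Apoa4 stands at 3.71 and 2.94 in the diet comparisons, and the other genes lie within 0.60 of 0 there, apart from Apoc2.

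Apoa4, apolipoprotein A-IV, is made by intestine and, in mice, also by liver, where it joins HDL and newly made triglyceride-rich particles. It had 3418, 2199 and 1351 TPM in HFD-IRI livers and 1950.1, 5893 and 1435 TPM in HFD-Sham livers, against 184, 264 and 459 TPM in ND-IRI livers and 236, 137 and 226 TPM in ND-Sham livers. Every HFD library lay above every ND library, and the HFD-Sham libraries were the most spread (coefficient of variation 78.9%). The mean was 15.5 times as high in HFD-Sham as in ND-Sham livers (log2 fold change 3.71, SE 0.503, limma adjusted p = 0.00178). It was 7.69 times as high in HFD-IRI as in ND-IRI livers (2.94, SE 0.503, adjusted p = 0.00703). Without HFD-Sham 2, the highest library, the log2 fold change in sham livers was 3.10 (adjusted p = 0.00466). By mean TPM Apoa4 ranked 51 and 43 among all genes in HFD-IRI and HFD-Sham livers, and 351 and 557 in ND-IRI and ND-Sham livers. For IRI over sham its log2 fold change was 0.53 on the normal diet (adjusted p = 0.407) and -0.23 on the high-fat diet (adjusted p = 0.729, 95% interval -1.33 to 0.86). The estimate on the high-fat diet was 0.37 without HFD-Sham 2 and 0.11 without HFD-IRI 3. The intestinal markers Lct, Cdx2, Muc2 and Vil1 stayed at or below 0.46 TPM in all 12 libraries, with Cdx2 at 0 in the HFD libraries. Lgr5, listed here as a marker of intestinal stem cells, reached at most 0.37 TPM in HFD-IRI, 2.67 TPM in HFD-Sham, 0.28 TPM in ND-IRI and 2.07 TPM in ND-Sham livers and was not called between the diets. Its IRI libraries lay below its sham libraries on each diet, the lowest sham values being 1.42 TPM (HFD) and 1.06 TPM (ND). Both Lgr5 and Fabp2 were called lower in ND-IRI than in ND-Sham livers. Fabp2, the intestinal fatty acid binding protein, was at 329.8 ± 29.5 TPM in HFD-IRI, 412 ± 53.2 TPM in HFD-Sham, 103 ± 3.70 TPM in ND-IRI and 183 ± 31.5 TPM in ND-Sham livers. It was called higher on the high-fat diet in sham livers (log2 fold change 1.17, adjusted p = 0.000729) and in IRI livers (1.67, adjusted p = 4.47e-05), and its relation to Apoa4 was not tested.

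Apoa4 lies between Apoc3 and Apoa5 in a run of 4 apolipoprotein genes on chromosome 9 that starts with Apoa1, with 0 other protein-coding RefSeq genes between them. The 250 bases before the start of Apoa4 and of Apoa1 are shown because the estimated diet differences of these neighbours had opposite signs in sham livers, and those of Apob because it was called lower after IRI on both diets. The sequences are from RefSeq on build GRCm38.p6, plus strand, 5′ to 3′, at chr9:46240594-46240843, chr9:46228380-46228629 and chr12:7977427-7977676, whereas the authors' build was GRCm39. Capitals mark matches, on either strand, to CAAAGTTCA, CAAAGTCCA or CAAAGGTCA (forms of the site bound by nuclear receptors such as HNF4A) or to TATAAA.
Apoa4: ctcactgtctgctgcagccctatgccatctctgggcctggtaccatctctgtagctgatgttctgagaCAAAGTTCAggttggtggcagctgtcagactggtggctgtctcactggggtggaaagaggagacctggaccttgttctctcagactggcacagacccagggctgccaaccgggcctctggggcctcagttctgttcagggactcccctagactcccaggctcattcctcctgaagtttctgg
Apoa1: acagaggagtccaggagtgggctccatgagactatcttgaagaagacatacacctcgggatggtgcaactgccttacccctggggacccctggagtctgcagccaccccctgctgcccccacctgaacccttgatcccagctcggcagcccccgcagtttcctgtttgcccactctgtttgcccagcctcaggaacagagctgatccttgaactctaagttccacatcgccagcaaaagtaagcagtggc
Apob: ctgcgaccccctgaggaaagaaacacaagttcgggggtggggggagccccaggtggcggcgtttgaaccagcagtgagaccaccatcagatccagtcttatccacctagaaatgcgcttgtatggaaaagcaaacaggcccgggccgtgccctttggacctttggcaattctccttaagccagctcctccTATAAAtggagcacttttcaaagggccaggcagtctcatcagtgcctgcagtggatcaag
CAAAGTTCA stands 182 bases before the start of Apoa4, and 0.335% of the 32851 RefSeq promoter windows of this length hold it, beside 0.384% for CAAAGTCCA and 0.426% for CAAAGGTCA. TATAAA stands 60 bases before the start of Apob and is held by 12.4% of windows, those of Apoa2, Apoa5 and Apoe included. The windows of Apoa4 and Apoa1 hold no TATAAA, and that of Apoa1 holds none of the 4 motifs in these letters.

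**Figure D3:**
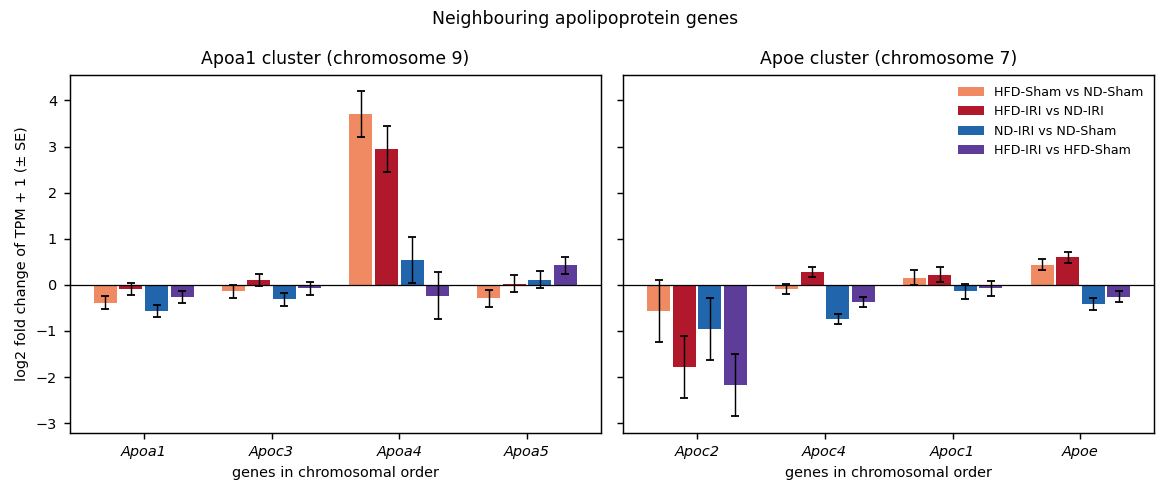
Bars are log2 fold changes of TPM + 1 with their SE for neighbouring genes in chromosomal order, Apoa1 to Apoa5 on chromosome 9 and Apoc2 to Apoe on chromosome 7, in 4 comparisons. In the first run only Apoa4 has bars above 0.60, and in the second Apoc2 has the longest bars, all below 0.

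Apoa1 encodes apolipoprotein A-I, the main structural protein of HDL and the activator of Lcat, the enzyme that esterifies HDL cholesterol. It had 11832, 10025 and 10975 TPM in HFD-IRI livers and 12956, 14809 and 11775 TPM in HFD-Sham livers, against 12847, 11756 and 10284 TPM in ND-IRI livers and 16660.4, 16836 and 17877 TPM in ND-Sham livers. ND-Sham livers were the highest, above every library of the other 3 groups. Apoa1 fell by 0.56 on the log2 scale in ND-IRI against ND-Sham livers (SE 0.136, limma adjusted p = 0.00514), a ratio of means of 0.679. The call was lost with no filter on low values (adjusted p = 0.0738). On the high-fat diet the IRI difference was -0.27 (SE 0.136, adjusted p = 0.13), with overlapping groups. In sham livers Apoa1 was at 0.770 of the ND level on the high-fat diet without overlap (log2 fold change -0.38, adjusted p = 0.126), and in IRI livers the difference was -0.08 (adjusted p = 0.867).

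Apoa2, apolipoprotein A-II, is the second most abundant HDL protein. It had 17351, 16087 and 20559.8 TPM in HFD-IRI livers and 19388, 18781 and 18929 TPM in HFD-Sham livers, against 12042, 13563 and 11175 TPM in ND-IRI livers and 17015, 16061 and 13337 TPM in ND-Sham livers. Both HFD groups lay above their ND counterparts without overlap, and neither difference was called. The log2 fold change was 0.55 in IRI livers (SE 0.144, adjusted p = 0.057, 0.0359 with a filter at 5 TPM and up to 0.357 under other alternatives). In sham livers it was 0.31 (SE 0.144, adjusted p = 0.245). For IRI over sham it was -0.33 on the normal diet (adjusted p = 0.0762) and -0.09 on the high-fat diet (adjusted p = 0.641). The former passed without ND-Sham 3 (-0.44, adjusted p = 0.0434) and with quantile normalization (-0.56, adjusted p = 0.0143). Under other alternatives its adjusted p was up to 0.337. Mean Apoa2 was above mean Apoa1 in both HFD groups and in ND-IRI livers and below it in ND-Sham livers, the ranges of the 2 genes overlapping in both ND groups.

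Apob encodes the scaffold of VLDL, 1 molecule of which stays with each particle for its life. It had 657, 641 and 536 TPM in HFD-IRI livers, against 1131, 1242 and 1134 TPM in HFD-Sham livers. It had 483, 702 and 717 TPM in ND-IRI livers, against 883, 779 and 995 TPM in ND-Sham livers. IRI libraries were below sham libraries on both diets without overlap, and the IRI libraries of the 2 diets overlapped. Apob fell by 0.94 on the log2 scale in HFD-IRI against HFD-Sham livers (SE 0.159, limma adjusted p = 0.000607), to 0.523 of the sham mean. With any 1 library left out, that adjusted p lay between 0.00012 and 0.00332. In ND-IRI against ND-Sham livers Apob fell by 0.50 (SE 0.159, adjusted p = 0.0223), to 0.716 of the sham mean. This call was lost without ND-IRI 1, the lowest library (-0.31, adjusted p = 0.0729), without ND-Sham 3 (-0.41, adjusted p = 0.0859) and without both first ND libraries (-0.31, adjusted p = 0.111). It was also lost with quantile normalization (-0.40, adjusted p = 0.0748) and when only the groups compared were fitted (adjusted p = 0.057). The difference between the 2 IRI effects was -0.44 (SE 0.224, 95% interval -0.93 to 0.05, adjusted p = 0.546). For HFD over ND the log2 fold change was 0.41 in sham livers, where the groups did not overlap (adjusted p = 0.164), and -0.03 in IRI livers (adjusted p = 0.966).

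Mttp, which loads triglyceride onto nascent apolipoprotein B, had 160.4, 153 and 108 TPM in HFD-IRI livers and 131, 158 and 165 TPM in HFD-Sham livers, against 116, 87.2 and 89.4 TPM in ND-IRI livers and 128, 121 and 144.5 TPM in ND-Sham livers. The 3 ND-IRI libraries lay below the 3 ND-Sham libraries, and all other pairs of groups compared overlapped. That difference, -0.43 on the log2 scale (SE 0.169, 95% interval -0.80 to -0.06), missed the threshold (limma adjusted p = 0.0528). It passed without ND-IRI 1 (-0.56, adjusted p = 0.0189), without HFD-IRI 3 (adjusted p = 0.0247), with median-ratio scaling (-0.63, adjusted p = 0.0319) and with quantile normalization (-0.50, adjusted p = 0.0275). On the high-fat diet the IRI difference was -0.12 (adjusted p = 0.588), and 0.06 without HFD-IRI 3. Between the diets Mttp differed by 0.51 in IRI livers (adjusted p = 0.138, and 0.0374 without HFD-IRI 3) and by 0.20 in sham livers (adjusted p = 0.518). 

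Apoe encodes apolipoprotein E, the ligand through which remnant particles bind hepatic receptors, and is made by hepatocytes, macrophages and stellate cells. It had 23639.6, 24032 and 28059 TPM in HFD-IRI livers and 30369, 29577 and 30025 TPM in HFD-Sham livers, against 17726, 16057 and 16248 TPM in ND-IRI livers and 23363, 22319 and 20823 TPM in ND-Sham livers. The 4 groups overlapped in none of the 4 comparisons. Within each operation the HFD libraries were higher, and within each diet the IRI libraries were lower. The mean was 1.51 times as high in HFD-IRI as in ND-IRI livers (log2 fold change 0.60, SE 0.125, limma adjusted p = 0.0206). This call was lost without any 1 of ND-IRI 2, ND-IRI 3, HFD-IRI 1, HFD-IRI 2 or HFD-IRI 3 (adjusted p = 0.0517 to 0.0883) and under all 3 scaling alternatives (adjusted p = 0.0554 to 0.656, log2 fold change 0.15 to 0.57). It was also lost with no filter on low values (adjusted p = 0.351) and when only the groups compared were fitted (adjusted p = 0.108). In sham livers Apoe was 1.35 times as high on the high-fat diet (0.44, SE 0.125, adjusted p = 0.0623, and 0.0315 with a filter at 5 TPM). Over all processing alternatives this log2 fold change was 0.23 to 0.44, with an adjusted p of up to 0.677. With any 1 library left out the adjusted p was 0.0551 to 0.202. Apoe fell by 0.41 in ND-IRI against ND-Sham livers (SE 0.125, adjusted p = 0.0176), a ratio of means of 0.752. That call was lost without ND-Sham 2 (adjusted p = 0.0573), ND-IRI 2 (0.0585) or ND-IRI 3 (0.0591), with median-ratio scaling (adjusted p = 0.0525), with quantile normalization (-0.27, adjusted p = 0.141) and with no filter (adjusted p = 0.271). On the high-fat diet the IRI difference was -0.25 (SE 0.125, adjusted p = 0.116). Of 13 Kupffer cell and macrophage markers, 3 were called higher on the high-fat diet in sham livers and 0 in IRI livers, where 4.63% and 2.38% of all tested genes were called higher. Their summed TPM was 386 to 666 in HFD-IRI, 443 to 761 in HFD-Sham, 264 to 468 in ND-IRI and 401 to 478 in ND-Sham livers. After IRI, 4 of these markers were lower and Cd68 higher on each diet, where 16.6% (ND) and 21.9% (HFD) of all tested genes were lower. Of 6 stellate cell markers, 3 were called higher on the high-fat diet in sham livers and 1 in IRI livers, with summed TPM of 129 to 167, 121 to 224, 78.2 to 111 and 82.1 to 126 in HFD-IRI, HFD-Sham, ND-IRI and ND-Sham livers. The part of these cells in the Apoe differences was not tested.

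**Figure D4:**
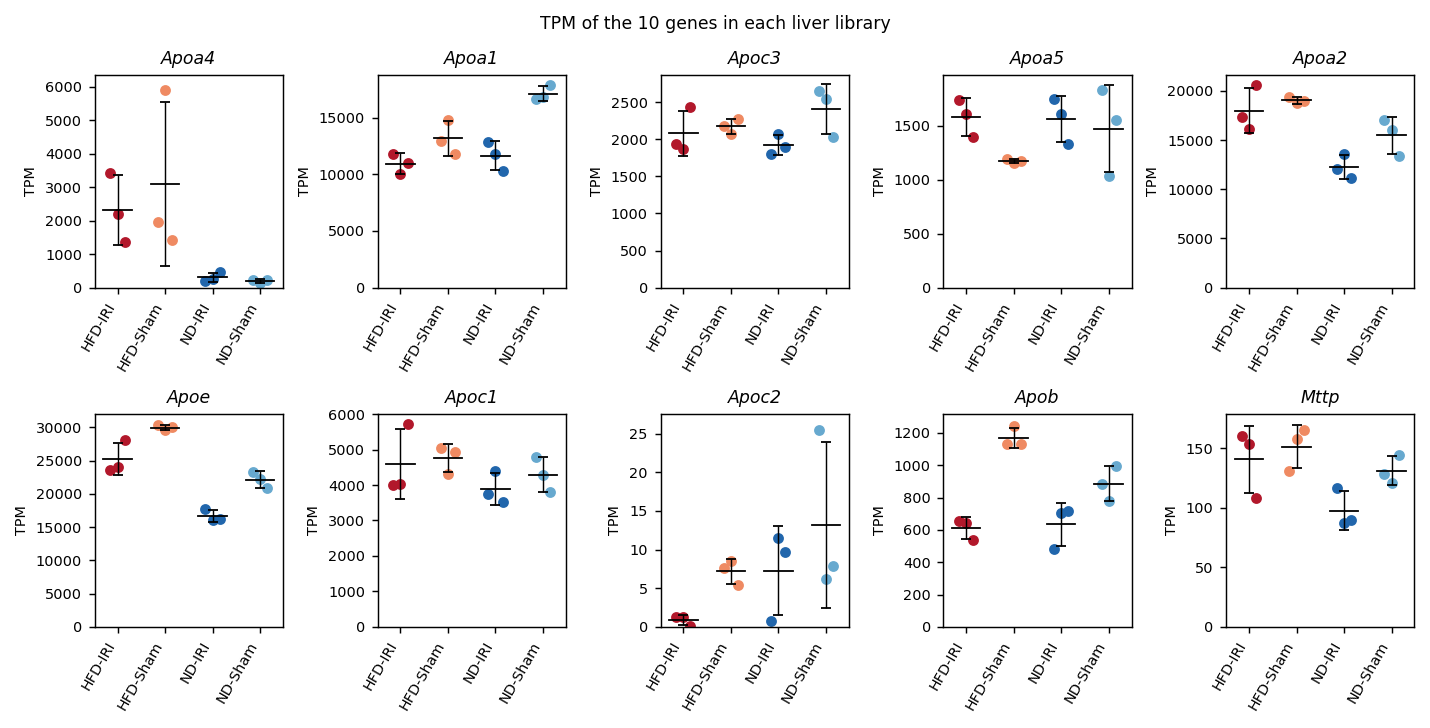
Points are TPM of single libraries, horizontal lines group means and bars the SD (n = 3), on axes that start at 0. Apoa4 is high in the 6 HFD libraries, Apob is below its sham group after IRI on both diets, and the 4 groups of Apoe are stacked without overlap in the comparisons made.

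The C apolipoproteins sit on triglyceride-rich particles and HDL. Apoc1, which inhibits receptor binding and lipoprotein lipase, had 3996, 4030.4 and 5718 TPM in HFD-IRI livers and 5034, 4298 and 4944 TPM in HFD-Sham livers, against 3759, 4392 and 3512 TPM in ND-IRI livers and 4791, 4276 and 3809 TPM in ND-Sham livers. All groups overlapped in the 4 comparisons, and the log2 fold changes lay between -0.14 and 0.22 (adjusted p = 0.493 to 0.739). Apoc3, an inhibitor of lipoprotein lipase and of remnant uptake, had 1934, 1875 and 2435 TPM in HFD-IRI livers and 2179.9, 2074 and 2280.3 TPM in HFD-Sham livers, against 1800.0, 2073 and 1901 TPM in ND-IRI livers and 2651, 2550.5 and 2030.4 TPM in ND-Sham livers. Its largest difference was -0.32 for ND-IRI over ND-Sham (95% interval -0.62 to -0.02, adjusted p = 0.076). That difference passed without ND-Sham 3 (-0.44, adjusted p = 0.0288) and with median-ratio scaling (-0.52, adjusted p = 0.0377). Over all processing alternatives it ranged from -0.52 to -0.08, with an adjusted p of up to 0.633.

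Apoc2 encodes the cofactor that lipoprotein lipase needs, and its values here were low. It had 1.27, 1.24 and 0.12 TPM in HFD-IRI livers and 7.67, 8.50 and 5.39 TPM in HFD-Sham livers, against 0.73, 11.5 and 9.66 TPM in ND-IRI livers and 25.5, 6.22 and 7.82 TPM in ND-Sham livers. The HFD-IRI libraries lay below the HFD-Sham libraries without overlap, ND-IRI 1 stood apart from the other ND-IRI libraries, and ND-Sham 1, the library with Adipoq, was the highest. Apoc2 fell by 2.18 on the log2 scale in HFD-IRI against HFD-Sham livers (SE 0.673, limma adjusted p = 0.0197). The call was lost without HFD-Sham 1 (adjusted p = 0.0524), HFD-Sham 2 (0.0577) or HFD-IRI 3 (0.0687), and with no filter on low values (0.0509). On the normal diet the difference was -0.96 (adjusted p = 0.265), and without both first ND libraries it was 0.53 (adjusted p = 0.197). Without those 2 libraries the difference between the IRI effects was called (-2.71, adjusted p = 0.0232), and with them it was not (-1.22, adjusted p = 0.727). Likewise Apoc2 differed by -1.78 between HFD-IRI and ND-IRI livers (adjusted p = 0.21), and by -2.69 without ND-IRI 1 (adjusted p = 0.0107). RefSeq annotates a read-through gene, Gm44805 (Apoc4-apoc2), across Apoc2 and its neighbour Apoc4, and no gene named Gm44805 is among the deposited values. How the authors' counting treated reads from this overlap is not given, so the Apoc2 and Apoc4 values are uncertain. Apoc4, another C apolipoprotein of VLDL, was at 296 ± 37.3 TPM in HFD-IRI livers against 381 ± 18.8 TPM in HFD-Sham livers (log2 fold change -0.37, adjusted p = 0.0158). It was at 242 ± 10.2 TPM in ND-IRI livers against 406 ± 21.7 TPM in ND-Sham livers (-0.74, adjusted p = 0.000211).

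Apoa5, apolipoprotein A-V, is a scarce plasma protein that promotes lipolysis of triglyceride-rich particles. It had 1737, 1603 and 1395 TPM in HFD-IRI livers, against 1193, 1157 and 1171 TPM in HFD-Sham livers. On the normal diet it had 1747, 1602 and 1331 TPM in ND-IRI livers, against 1829.5, 1037 and 1547 TPM in ND-Sham livers. HFD-Sham libraries were close together (coefficient of variation 1.52%) and below every HFD-IRI library, whereas the ND groups overlapped. The IRI difference on the high-fat diet was 0.42 on the log2 scale (SE 0.185, 95% interval 0.02 to 0.82) and was not called (limma adjusted p = 0.081). It was called without ND-Sham 1 (adjusted p = 0.0484), without ND-Sham 2 (0.0251), with quantile normalization (0.47, adjusted p = 0.0433) and when only the groups compared were fitted (adjusted p = 0.0235). On the normal diet it was 0.11 (adjusted p = 0.636), and -0.12 without ND-Sham 2. Without overlap 4 of the 10 genes were lower in ND-IRI than in ND-Sham livers, where 20.0% of all tested genes were lower, 31.4% higher and 51.4% either without overlap. In HFD-IRI against HFD-Sham livers 3 were lower and 1 higher, where the shares of all tested genes were 28.5% and 30.9%, and 59.4% in either direction. In HFD-Sham against ND-Sham livers 4 were higher and 1 lower (25.1% and 4.74% of all tested genes, 29.9% in either direction), and in HFD-IRI against ND-IRI livers 3 were higher and 0 lower (13.1% and 7.00%, 20.1% in either direction).

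The genes varied together only in part. Over the 12 libraries, which fall into the 4 groups, log2(TPM + 1) of Apoe and Apoa2 had a Pearson correlation of 0.93, and that of Apoa2 and Apoc1 was 0.83, although these genes lie on different chromosomes. The neighbours Apoa1 and Apoa4 were at -0.43, and Apoa4 and Apoa5 at -0.20. The tested genes most like Apoa4 over the 12 libraries were Dhrs7b (0.97), a short-chain dehydrogenase, and Col6a3 (0.96), a collagen VI chain. Dhrs7b was at 18.8 ± 2.00 TPM in HFD-IRI and 21.0 ± 4.54 TPM in HFD-Sham livers, against 11.1 ± 0.749 TPM in ND-IRI and 10.2 ± 1.65 TPM in ND-Sham livers. Those most like Apob were Ubr3 (0.98), a ubiquitin ligase, and Tlr5 (0.97), the flagellin receptor, which was at 2.51 ± 0.671 TPM in HFD-IRI and 18.3 ± 1.61 TPM in HFD-Sham livers, against 2.48 ± 1.13 TPM in ND-IRI and 8.06 ± 0.790 TPM in ND-Sham livers. Nearest to Apoe was Khdrbs3 (0.97), an RNA-binding protein. Apoa1 was closest to Fxyd7 (0.94) and Mst1 (0.93), Apoa2 to Ndufa7 (0.96) and Uqcrq (0.94), Apoc1 to Gbp7 (0.92) and Ndufa3 (0.88), and Apoc2 to Apon (0.94) and Fuz (0.94). For Apoc3 they were Mylpf and Gchfr (0.88 each), for Mttp Tox (0.92) and Rdh9 (0.89), and for Apoa5 Ttyh1 (0.86) and Zfp598 (0.84). Fxyd7, Mylpf and Ttyh1 were near the floor, with group means of at most 1.70, 1.57 and 1.13 TPM.

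Among the other apolipoproteins and lipoprotein-bound proteins, 10 of 12 listed genes were tested. After IRI on the normal diet 3 rose and 4 fell (median log2 fold change of the list -0.29), and on the high-fat diet 2 rose and 3 fell (-0.14). The shares of all tested genes that rose and fell were 30.2% and 16.6% on the normal diet, and 24.0% and 21.9% on the high-fat diet. The acute phase apolipoproteins of HDL moved most. Saa2 was at 1231 ± 886 TPM in ND-IRI livers against 51.1 ± 62.5 TPM in ND-Sham livers (log2 fold change 4.92, adjusted p = 0.000432), and at 363 ± 132 TPM in HFD-IRI livers against 42.0 ± 18.4 TPM in HFD-Sham livers (3.13, adjusted p = 0.0074). Saa1 rose by 3.61 and 2.56 in ND-IRI and HFD-IRI livers over their sham groups. Saa2 had 322, 2093 and 1277 TPM in ND-IRI livers and 123, 16.5 and 13.5 TPM in ND-Sham livers, so the first library of each group lay nearest to the other group. On the normal diet the Saa2 and Saa1 log2 fold changes were 5.90 and 4.61 without ND-Sham 1, 5.70 and 4.26 without ND-IRI 1, and 6.68 and 5.26 without both. The Saa1 call on the high-fat diet was lost without HFD-Sham 3 or HFD-IRI 2 (adjusted p of at most 0.0632). Saa1 and Saa2 are near-identical, so their reads may be divided between them. Pon1, the HDL esterase paraoxonase, fell by 0.75 in ND-IRI against ND-Sham livers (adjusted p = 0.00188), and differed by -0.14 on the high-fat diet (adjusted p = 0.462). Apof, in humans an inhibitor of lipid transfer, fell by 0.56 in HFD-IRI against HFD-Sham livers (adjusted p = 0.00348) and by 0.60 in ND-IRI against ND-Sham livers (adjusted p = 0.00205). Apon fell by 0.64 on the high-fat diet (adjusted p = 0.0354), a call lost without any 1 of the 6 HFD libraries (adjusted p of at most 0.0831). On the normal diet Apon differed by -0.51 (adjusted p = 0.0842). Apom, the HDL carrier of sphingosine 1-phosphate, was the only gene of this list called between the diets in sham livers, where 5.84% of all tested genes were called. It was at 217 ± 30.8 TPM in HFD-Sham livers against 371 ± 18.9 TPM in ND-Sham livers (-0.78, adjusted p = 0.00965, and 0.0527 without HFD-Sham 2).

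Of 27 assembly and secretion partners, all tested, 8 rose and 8 fell after IRI on the normal diet (median log2 fold change -0.005), whereas on the high-fat diet 6 rose and 9 fell (-0.20). The shares of all tested genes that rose and fell were 30.2% and 16.6% on the normal diet, and 24.0% and 21.9% on the high-fat diet. Apobec1, the cytidine deaminase that edits Apob mRNA so that the short form, apolipoprotein B48, is made, had 56.8 ± 7.03 TPM in HFD-IRI livers against 22.6 ± 6.29 TPM in HFD-Sham livers (log2 fold change 1.32, adjusted p = 0.000302). It had 55.5 ± 7.67 TPM in ND-IRI livers against 18.8 ± 3.69 TPM in ND-Sham livers (1.52, adjusted p = 0.000105). A1cf, which helps Apobec1 bind that mRNA, was at 35.5 ± 5.19 TPM in HFD-IRI livers against 99.7 ± 20.7 TPM in HFD-Sham livers (-1.45, adjusted p = 0.000167). It fell by 0.82 in ND-IRI against ND-Sham livers (adjusted p = 0.00563). A1cf was 1.04 higher in HFD-Sham than in ND-Sham livers (adjusted p = 0.0116), a call lost without ND-Sham 2 or HFD-Sham 2 (adjusted p of at most 0.0636). Editing itself was not measured. Dgat2, which makes triglyceride for VLDL, fell by 1.08 after IRI on the normal diet (limma adjusted p = 0.00103). On the high-fat diet Dgat2 fell by 1.31 (adjusted p = 0.000321). Sort1, a sorting receptor that binds apolipoprotein B, fell by 1.71 after IRI on the high-fat diet (adjusted p = 0.000504). Its fall of 0.83 on the normal diet was also called (adjusted p = 0.0286). That call was lost without any 1 of 4 ND libraries (adjusted p of at most 0.0977). The vesicle coat gene Sec24b rose by 0.98 on the normal diet (limma adjusted p = 0.000865) and by 1.08 on the high-fat diet. Sec24d rose by 1.08 on the normal diet, and its difference of 0.49 on the high-fat diet was not called (adjusted p = 0.113). Between the diets in sham livers 2 rose and 1 fell (median 0.23), where 4.63% of all tested genes rose and 1.20% fell. Ces1d, a triglyceride hydrolase, rose by 0.89 (adjusted p = 0.048), and Tm6sf2, which aids lipid loading of VLDL, fell by 0.69 (adjusted p = 0.026). The Ces1d call was lost without any 1 of 9 of the 12 libraries, those of both sham groups included (adjusted p of at most 0.17), and the Tm6sf2 call without ND-Sham 2, ND-Sham 3, HFD-Sham 1 or HFD-Sham 2 (at most 0.129). P4hb, the partner subunit of Mttp, was chosen after its values were seen. It was at 1392 ± 180.0 TPM in ND-IRI livers against 999.6 ± 19.4 TPM in ND-Sham livers (0.47, adjusted p = 0.0105), and at 1355 ± 86.5 TPM in HFD-IRI livers against 1338 ± 195 TPM in HFD-Sham livers (0.03, adjusted p = 0.886).

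Of 10 lipase and plasma remodelling genes, 2 fell and 0 rose after IRI on the normal diet (median log2 fold change -0.11). On the high-fat diet 2 rose and 1 fell (-0.26). Lipg, endothelial lipase, fell by 1.66 and 1.51 in ND-IRI and HFD-IRI livers against their sham groups. Lcat fell by 0.70 in ND-IRI against ND-Sham livers (adjusted p = 0.00123), and differed by -0.21 on the high-fat diet (adjusted p = 0.212). Angptl4 and Angptl8, secreted inhibitors of lipoprotein lipase, rose by 1.57 (adjusted p = 0.000434) and 1.68 (adjusted p = 0.0118) in HFD-IRI against HFD-Sham livers. On the normal diet they differed by 0.47 (adjusted p = 0.144) and 0.83 (adjusted p = 0.164). Angptl8 had 125, 103 and 107 TPM in ND-IRI livers, against 172, 35.8 and 38.1 TPM in ND-Sham livers. ND-Sham 1, the library with Adipoq, was the highest, and the other ND-Sham libraries lay below every ND-IRI library. Among receptors and cholesterol exporters, 13 of 14 were tested. On the normal diet 4 rose and 4 fell (median 0.06), and on the high-fat diet 3 rose and 4 fell (-0.07). For both lists, the shares of all tested genes that rose and fell were 30.2% and 16.6% on the normal diet, and 24.0% and 21.9% on the high-fat diet. Abca1, which loads cholesterol onto apolipoprotein A-I, rose by 1.99 on the normal diet (adjusted p = 0.000176) and by 1.38 on the high-fat diet (adjusted p = 0.00209). Abcg5 and Abcg8, which form the biliary sterol exporter, fell by 0.73 and 1.10 on the normal diet and by 1.32 and 1.79 on the high-fat diet. Abcg1, a cholesterol exporter, rose by 1.33 on the normal diet (adjusted p = 0.00799), and differed by 0.21 on the high-fat diet (adjusted p = 0.64). Sdc1, a heparan sulfate proteoglycan receptor for remnants, rose by 0.73 on the high-fat diet (adjusted p = 0.00303) and by 0.64 on the normal diet (adjusted p = 0.00608). Between the diets in sham livers, 0 of 10 and 1 of 13 genes of these lists were called, where 5.84% of all tested genes were called.

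**Figure D5:**
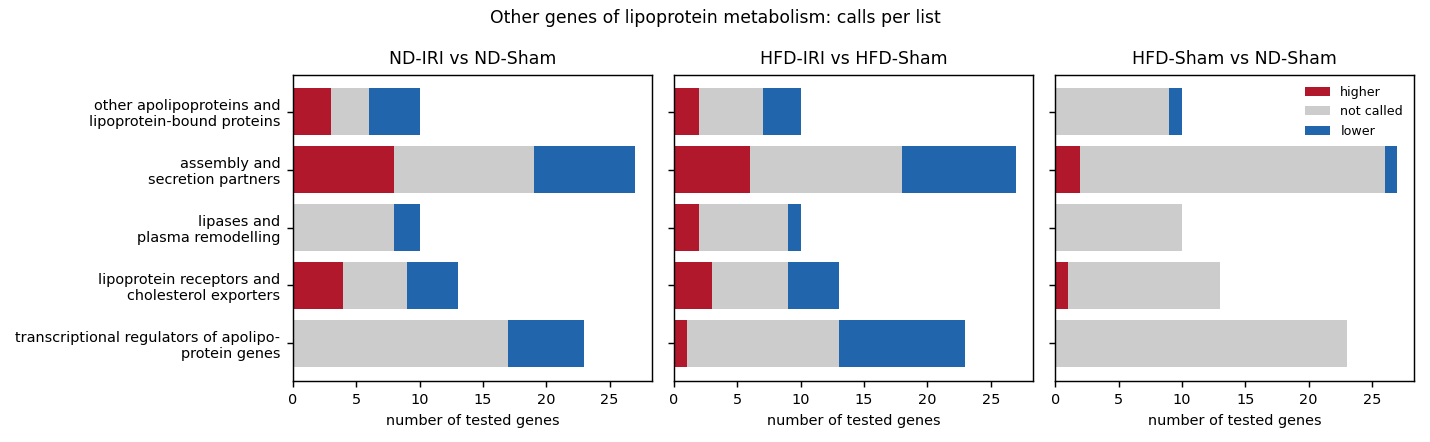
Bars count the tested genes of 5 lists of other lipoprotein genes that were called higher, not called or called lower in 3 comparisons. After IRI 6 and 10 of 23 regulators are lower on the normal and high-fat diet, where 16.6% and 21.9% of all tested genes were lower. The diet comparison in sham livers calls 5 genes in all 5 lists, where 5.84% of all tested genes were called.

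Of 23 transcriptional regulators of apolipoprotein genes, 6 fell and 0 rose after IRI on the normal diet (median log2 fold change -0.26), and 10 fell and 1 rose on the high-fat diet (-0.44). Of all tested genes, 16.6% fell and 30.2% rose on the normal diet, and 21.9% fell and 24.0% rose on the high-fat diet. Nr1h4, the bile acid receptor FXR, was at 60.7 ± 21.1 TPM in HFD-IRI livers against 218 ± 16.0 TPM in HFD-Sham livers (log2 fold change -1.89, adjusted p = 9.52e-05). It was at 53.5 ± 13.3 TPM in ND-IRI livers against 222 ± 35.0 TPM in ND-Sham livers (-2.05, adjusted p = 4.86e-05). Ppara, the fatty acid receptor PPAR-alpha, fell by 1.56 in HFD-IRI against HFD-Sham livers (adjusted p = 0.000951) and by 1.07 in ND-IRI against ND-Sham livers (adjusted p = 0.00836). Nr5a2, a nuclear receptor of bile acid and cholesterol genes, rose by 0.46 on the high-fat diet (adjusted p = 0.0294), a call lost without HFD-Sham 2, HFD-Sham 3, HFD-IRI 2 or HFD-IRI 3 (adjusted p of at most 0.115). On the normal diet Nr5a2 differed by -0.0011 (adjusted p = 0.996). Nr2f2, a nuclear receptor that represses several apolipoprotein promoters, fell by 1.09 in ND-IRI against ND-Sham livers (adjusted p = 0.0069) and by 0.80 in HFD-IRI against HFD-Sham livers (adjusted p = 0.0325). In the diet comparison of sham livers 0 of 23 were called, 0.066 being their median, where 5.84% of all tested genes were called. Hnf4a, a nuclear receptor of many apolipoprotein promoters, and Creb3l3, a liver factor that activates Apoa4 in mice, were chosen after their values were seen. Hnf4a differed by -0.32 (adjusted p = 0.533) and Creb3l3 by 0.07 (adjusted p = 0.838) between HFD-Sham and ND-Sham livers. For IRI over sham they differed by 0.18 and -0.26 on the normal diet (adjusted p = 0.615 and 0.189) and by 0.45 and -0.03 on the high-fat diet (adjusted p = 0.2 and 0.901).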

How the data were processed

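Per the labels' protocols, mRNA was enriched by its poly(A) tail from 12 mouse liver samples, made into strand-specific libraries and read on a BGI sequencer. The authors deposited TPM per gene symbol and sample, against build GRCm39 per the submitters' processing notes; aligner, counting tool and annotation are not given in the sources used here. A second sheet (23 sample columns, 6 genes, none of the genes described) was left out. Of 25949 rows 2 blank ones were dropped, and 18 repeated symbols were kept apart. A gene was tested where 3 or more samples reached 1 TPM (13364 genes), on log2(TPM + 1) in limma 3.58.1 (R 4.3.3), with a mean per group, a variance trend and Benjamini-Hochberg adjustment per contrast. The method was tested on simulated data.

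The genes, the gene lists and the alternatives were chosen with earlier results of these data known. Named genes were the 10 genes, per list and comparison up to 2 called rises and 2 called falls of largest size whose higher group averaged 5 TPM or more, and the 2 genes of highest Pearson correlation with each of the 10. A gene named by the rule is not reported here. Hnf4a, Creb3l3, P4hb and the markers beside results fall outside this rule. So do values of a named gene, such as Apoc4, on a diet for which the rule did not name it. The replicate numbers in the titles were not used to pair the samples in the main fit. RefSeq promoter windows (GRCm38.p6) were found for 8 of the 10 genes. Leaving out libraries for the named genes of the lists was added after seeing the data.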

Additional observations from a re-analysis of the deposited data

How the results depend on the processing

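The calls of Apoa4 in both diet comparisons held under every alternative run, and that of Apob between HFD-IRI and HFD-Sham livers under every one other than a minimum fold change, its log2 fold change being -0.94. Under an added minimum of 1 for the log2 fold change, 0, 1 and 1 genes were called for ND-IRI over ND-Sham, HFD-IRI over HFD-Sham and HFD-IRI over ND-IRI. With no filter on low values 1 gene was called in each of these. A filter at 5 TPM called 2 genes for HFD-Sham over ND-Sham, adding Apoe (adjusted p = 0.0315, and up to 0.677 under other alternatives). For HFD-IRI over ND-IRI, 1 gene was called with each of the 3 scaling alternatives and when only the groups compared were fitted. Leaving out single libraries gave 2 to 4 genes for ND-IRI over ND-Sham, 1 to 3 for HFD-IRI over HFD-Sham and for HFD-IRI over ND-IRI, 1 for HFD-Sham over ND-Sham, and 0 for the difference between the IRI effects, where 1 was called without both first ND libraries. Libraries of the same replicate number in 2 groups had deviations from their group means correlated at r = -0.19 to 0.42. Between HFD-Sham and ND-Sham libraries r was 0.40, 0.08 and 0.27. Whether the number marks a shared batch was not tested. The fit with the replicate number as a block called 3, 2, 1, 2 and 0 genes in the 5 comparisons, as without it.

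The log2 ratio of the summed TPM of the 10 genes, -0.39 for ND-IRI over ND-Sham, was -0.59 with median-ratio scaling. For HFD-Sham over ND-Sham, 0.22, it was 0.0095 with median-ratio scaling and 0.091 without Apoe. Estimates that changed sign were all uncalled. With median-ratio scaling these were Apoa5 for ND-IRI over ND-Sham (-0.085) and HFD-IRI over ND-IRI (-0.0028), and Apoc1 (-0.052) and Mttp (-0.0018) for HFD-Sham over ND-Sham. With quantile normalization they were Apoc3 for HFD-IRI over HFD-Sham (0.085) and HFD-Sham over ND-Sham (0.077), Apoa1 for HFD-IRI over ND-IRI (0.25), and Apoc1 (-0.061) and Apoe (-0.080) for the difference between the IRI effects. Rescaling without the mitochondrial and 50 most abundant genes gave -0.032 for Apoa5 in HFD-IRI over ND-IRI livers. Without both first ND libraries, Apoc2 was at 0.53 for ND-IRI over ND-Sham and 0.017 for HFD-Sham over ND-Sham, and Apoc1 at -0.033 for the difference between the IRI effects. Over single libraries left out, sign-changing estimates ranged from -0.12 to 0.29 for Apoa5 in ND-IRI over ND-Sham livers. In HFD-IRI over HFD-Sham livers they ranged from -0.65 to 0.37 for Apoa4, from -0.24 to 0.016 for Apoc1 and from -0.22 to 0.058 for Mttp, and in HFD-Sham over ND-Sham livers from -0.92 to 0.017 for Apoc2. In HFD-IRI over ND-IRI livers they ranged from -0.22 to 0.065 for Apob, from -0.090 to 0.11 for Apoa5 and from -0.013 to 0.18 for Apoc3, and for the difference between the IRI effects from -0.099 to 0.16 for Apoc1. Apoc2 in ND-IRI over ND-Sham livers ranged from -1.47 to -0.046. The cause of these changes was not tested. The depth of the libraries is unknown, so its effect on low genes such as Apoc2 was not tested.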
